A study of Mus musculus with 11 samples.

Results

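The 10 genes Insr, Igf1r, Irs1, Irs2, Glp1r, Gipr, Gcgr, Lepr, Ppargc1a and Pparg, which encode receptors, adapters and transcriptional regulators of insulin, incretin, glucagon and leptin signaling, were followed through DNA methylation tables of the newborn mouse pancreas. They were taken by gene symbol, and no measured value enters that rule. All 10 of the 10 had a row among the 25802 gene bodies, 8 had a row among the 24391 promoters (Gipr and Ppargc1a did not), and 12 of 14841 CpG islands and 94 of 259716 tiles of 5000 bp overlapped a gene or its promoter. Methylation was measured by reduced representation bisulfite sequencing (RRBS), which reads the share of methylated cytosines at CpG sites close to the cut sites of restriction enzymes, here MspI and TaqI. The tissue was whole pancreas from 11 wild-type C57BL/6N pups at postnatal day 0. Dams of 5 pups (3 female, 2 male) received amphetamine at 10 mg/kg on embryonic days 14.5, 15.5 and 16.5, while dams of 6 control pups (3 female, 3 male) received saline. The same 11 pups were also compared by sex, as 6 females and 5 males, so both comparisons rest on shared animals. The labels do not say which pups were littermates, so p-values measure the spread between pups, some of which may share a dam.

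Insulin receptor (Insr) and the insulin-like growth factor receptor (Igf1r) are tyrosine kinases that pass their signal to the adapters Irs1 and Irs2, and in β cells the Irs2 branch is known for sustaining cell mass. Glp1r, Gipr and Gcgr are G protein-coupled receptors for glucagon-like peptide 1, gastric inhibitory polypeptide and glucagon, which raise cyclic AMP and amplify glucose-stimulated insulin release. The leptin receptor (Lepr) signals through Janus kinases, Pparg is a nuclear receptor best known from adipocytes, and Ppargc1a is a coactivator of mitochondrial and gluconeogenic genes. CpG-rich promoters of such genes are usually unmethylated, whereas CpG sites inside transcribed gene bodies are usually methylated.

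How much of a promoter RRBS can read differed widely between the genes. Promoters here run from 1500 bp before to 500 bp after a gene start (mm10). That of Irs2 held 253 CpG sites, of which 204 lay no more than 50 bp from a cut site, and that of Igf1r held 237, of which 180 were within that reach. The median over all 24391 promoters was 58 CpG sites and 31 within reach. At the other end, the same windows of Gipr and Ppargc1a, for which no promoter row was present, held 28 and 22 CpG sites, with 5 and 3 within reach. The 250 bases before the RefSeq start of Igf1r, Irs1 and Irs2 are printed because the promoter results turn on these genes and because no annotated exon overlaps the windows. The sequences are from RefSeq on GRCm38.p6, the assembly also named mm10. They are given 5′ to 3′ on the strand of the gene with MspI sites (CCGG) and TaqI sites (TCGA) in capitals, both motifs reading the same on either strand.
Igf1r, chr7:67952007-67952256, + strand: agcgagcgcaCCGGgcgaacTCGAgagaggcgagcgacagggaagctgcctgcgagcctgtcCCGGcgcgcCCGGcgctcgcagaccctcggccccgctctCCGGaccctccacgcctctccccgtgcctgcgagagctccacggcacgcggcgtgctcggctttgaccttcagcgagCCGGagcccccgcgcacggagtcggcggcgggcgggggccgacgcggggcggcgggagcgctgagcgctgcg
Irs1, chr1:82291440-82291689, - strand: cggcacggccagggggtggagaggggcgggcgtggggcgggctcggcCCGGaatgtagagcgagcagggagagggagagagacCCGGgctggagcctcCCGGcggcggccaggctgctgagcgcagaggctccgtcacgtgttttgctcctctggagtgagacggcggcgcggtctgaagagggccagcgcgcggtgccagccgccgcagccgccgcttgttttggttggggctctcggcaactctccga
Irs2, chr8:11008930-11009179, - strand: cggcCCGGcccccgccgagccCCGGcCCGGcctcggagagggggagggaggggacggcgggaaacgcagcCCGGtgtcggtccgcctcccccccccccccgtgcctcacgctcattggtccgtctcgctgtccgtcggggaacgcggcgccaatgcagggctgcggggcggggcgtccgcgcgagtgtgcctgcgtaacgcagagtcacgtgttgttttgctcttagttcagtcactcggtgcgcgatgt
Igf1r carried 42 CpG sites, 5 MspI sites and 1 TaqI site in this stretch, Irs1 carried 28 CpG sites and 3 MspI sites, and Irs2 carried 34 CpG sites and 4 MspI sites. Over 32851 RefSeq windows of the same length the median was 6 CpG sites, 47.1% held an MspI site and 18.5% held a TaqI site. RefSeq windows were found for 8 of the 10 genes, the exceptions being Insr and Gipr.

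Values per pup were not analysed here, so each group is given by its mean, SD and the lowest and highest pup. In controls, 7 of the 8 promoters lay below 10% methylation. The least methylated was that of Pparg (chr6:115359721-115361720) at 0.427% ± 1.05 (SD, n = 6), with the lowest pup at 0% and the highest at 2.56%. Next came Igf1r at 1.62% ± 1.22, Lepr at 1.84% ± 2.18, Irs2 at 2.80% ± 1.02 and Glp1r at 3.0% ± 2.07, whose ranges overlap each other. Insr stood at 6.06% ± 2.60 and Irs1 at 8.90% ± 3.20, and Gcgr was highest at 14.9% ± 7.58, from 1.67% to 25%. The median of all promoters was 6.53% in controls. Pparg has a further RefSeq start inside the gene, whose 250 bases (chr6:115421816-115422065, 2 CpG sites) lie outside the promoter window given here. Coverage, read here as the reads added up across the CpGs of each region, averaged between 170 (Gcgr) and 1959 (Igf1r) per group in the treatment tables over these 8 promoters, so Igf1r and Irs2 are measured more precisely than Gcgr.

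**Figure D1:**
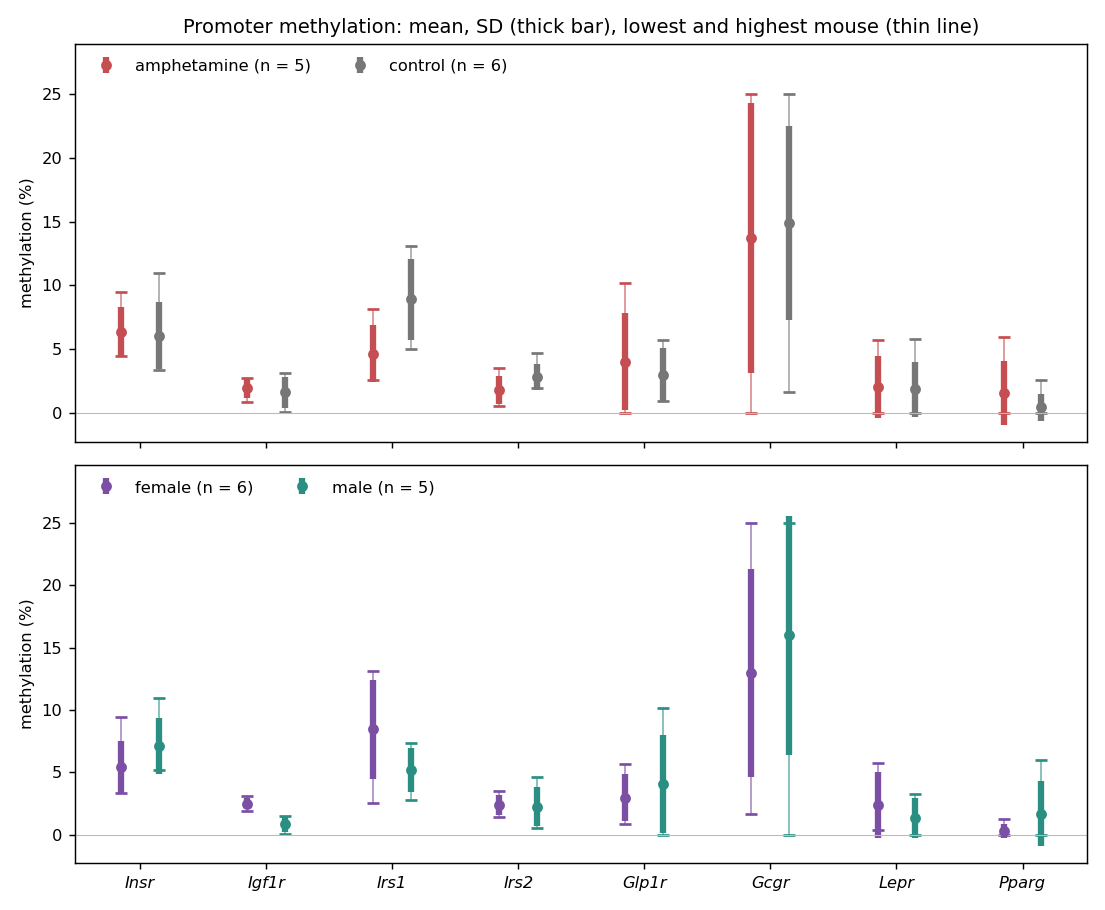
Methylation (%) of the 8 promoters, by treatment (upper panel, amphetamine n = 5, control n = 6) and by sex (lower panel, female n = 6, male n = 5). Points are group means, thick bars the SD and thin lines run from the lowest to the highest pup; the Igf1r ranges of females (1.90% to 3.14%) and males (0.10% to 1.53%) do not overlap, while every pair of ranges in the upper panel does.

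For prenatal amphetamine, the question was whether these promoters differed in methylation at birth. None did at the thresholds of the study (adjusted p under 0.05, ratio above 1.5 after adding 1 point to both means, difference above 25 points): 0 of the 8 promoters were called by limma after Benjamini-Hochberg adjustment over 22824 promoters, as were 0 of all promoters (0%). The control means of the 8 were at most 14.9%, so this rule could have called a gain of methylation but not a loss. The same limit applies to any region here with a control or male mean under 25%. Of the 8, 5 were higher and 3 lower after amphetamine (49.1% and 49.9% of all promoters), and 1 had an unadjusted p under 0.05, against 4.46% of all promoters. In none of the 8 were the ranges of the groups separate, against 0.401% of all promoters with reads in every pup. Because whole pancreas was sampled, a shift in cell makeup and a shift within a cell type cannot be told apart in any value given here.

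The 1 promoter under that limit was that of Irs1 (chr1:82290917-82292916), the adapter that couples insulin and IGF receptors to phosphoinositide 3-kinase. It was methylated at 4.64% ± 2.25 in 5 amphetamine-exposed pups (2.57% to 8.11%) and at 8.90% ± 3.20 in 6 controls (5.0% to 13.1%). The ranges overlapped between 5.0% and 8.11%, the highest pup being a control female and the lowest an exposed female. The difference of -4.26 points (SE 1.71, from the pooled SD) had an adjusted p of 0.937 in the limma test. Leaving out any single pup kept it between -5.13 and -3.42 points, and with sex as a second term it was -4.63 points (SE 1.25, adjusted p = 0.945). In size it exceeded 72.7% of the differences of all promoters.

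The regions around the Irs1 start gave the same sign, but they share reads with the promoter and are not further evidence. Its promoter CpG island (chr1:82290196-82291822) stood at 3.25% ± 1.65 after amphetamine and 5.86% ± 2.80 in controls (difference -2.62 points, SE 1.43, adjusted p = 0.923, limma). The tile over it (chr1:82290001-82295000) stood at 3.15% ± 1.65 and 6.00% ± 2.27 (difference -2.85 points, SE 1.22, adjusted p = 0.967, limma). A second Irs1 island inside the gene (chr1:82283184-82283558) was almost free of methylation, at 0.222% ± 0.497 and 0.0794% ± 0.194, with 1.11% in the highest of the 11 pups.

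Irs2, the second adapter, was also lower after amphetamine, at 1.78% ± 1.09 (0.510% to 3.49%) against 2.80% ± 1.02 (1.93% to 4.66%) in its promoter (chr8:11007959-11009958). The difference of -1.02 points (SE 0.636) did not pass (adjusted p = 0.937, limma), and the ranges overlapped. Its island (chr8:11006955-11009869), one of the deepest regions at a mean coverage of 1648 and 1064, gave 1.61% ± 0.816 and 2.83% ± 1.0 (adjusted p = 0.923, limma).

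The promoters of the receptors lay close together in both groups. That of Insr (chr8:3279118-3281117) stood at 6.38% ± 1.94 after amphetamine and 6.06% ± 2.60 in controls. That of Igf1r (chr7:67951359-67953358) stood at 1.93% ± 0.785 and 1.62% ± 1.22, a difference of 0.307 points with an SE of 0.637. Both receptor kinases thus had differences smaller than their SE. For Glp1r (chr17:30900367-30902366) the values were 4.02% ± 3.80 and 3.0% ± 2.07, and for Gcgr (chr11:120529199-120531198) 13.7% ± 10.6 and 14.9% ± 7.58. Gcgr varied most, from 0% in an exposed male to 25% in both groups, and with an SE of 5.48 points only a large difference could have been detected there. Lepr (chr4:101715904-101717903) stood at 2.02% ± 2.44 and 1.84% ± 2.18, and Pparg at 1.57% ± 2.52 and 0.427% ± 1.05. The Pparg difference of 1.14 points (SE 1.12) shrank to 0.0389 points without its highest pup, an exposed male at 5.97%.

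Gene bodies spread over a wide range. In controls Ppargc1a was the most methylated, at 80.6% ± 3.59, followed by Igf1r at 71.0% ± 2.26, Lepr at 69.3% ± 2.36 and Glp1r at 51.7% ± 7.40. Insr stood at 36.8% ± 5.99 and the other five between 17.2% and 27.0%, against a median of 51.3% over all genes. The most methylated, Ppargc1a, had no CpG island, whereas each of the other 9 genes overlapped at least 1. Gipr (chr7:19157125-19166127) was lowest at 17.2% ± 4.42.

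**Figure D2:**
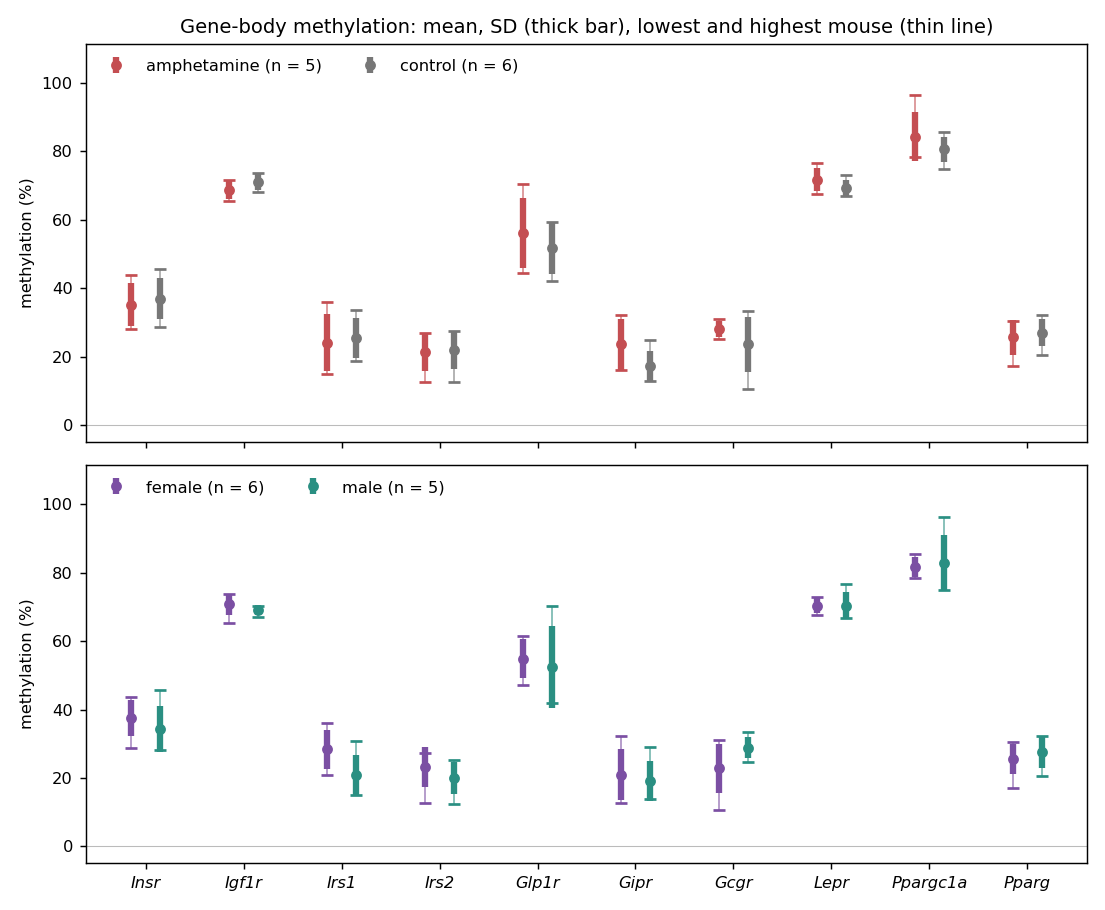
Methylation (%) of the 10 gene bodies by treatment (upper panel, amphetamine n = 5, control n = 6) and by sex (lower panel, female n = 6, male n = 5), with means as points, the SD as thick bars and the lowest to highest pup as thin lines. Ppargc1a, Lepr and Igf1r lie above 65% in every pup, and the groups overlap for each gene in both panels.

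No gene body was called for treatment, among the 10 or among all 24777 tested (0%), 5 of the 10 were higher and 5 lower (48.1% and 51.4% of all genes), in none were the groups separate (0.314% of all genes), and 0 of the 10 had an unadjusted p under 0.05, against 4.27% of all genes, in the limma test. The incretin and glucagon receptors were the 3 with the highest differences. Gipr stood at 23.6% ± 7.38 (16.0% to 32.3%) after amphetamine and 17.2% ± 4.42 (12.7% to 25%) in controls, a difference of 6.40 points (SE 3.59, adjusted p = 0.986, limma). Glp1r (chr17:30901867-30936510) stood at 56.2% ± 10.3 and 51.7% ± 7.40, and Gcgr (chr11:120530699-120538986) at 28.0% ± 2.38 and 23.6% ± 7.94. Their differences were 4.54 points (SE 5.32) and 4.43 points (SE 3.71), that of Glp1r being below its SE. Both had an adjusted p of 0.986 in limma. The ranges overlapped for all 3, and leaving out any single pup kept amphetamine higher in each, by 4.23 to 8.31 points for Gipr, 1.01 to 7.49 for Glp1r and 1.82 to 6.38 for Gcgr. Ppargc1a was higher by 3.68 points (SE 3.33) and Lepr by 2.40 (SE 1.72). Igf1r, the deepest gene at a mean coverage of 6622 and 5153.5, was lower by 2.33 points, at 68.7% ± 2.5 and 71.0% ± 2.26 (SE 1.43, adjusted p = 0.986). Insr, Irs1, Irs2 and Pparg were lower by 0.527 to 1.61 points, each less than its SE.

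Within genes, methylation followed position. Tested tiles that touched a promoter had a control median of 6.27% over 10 tiles, against 79.9% over the 77 other tiles. The dip at the start was sharp for Insr, Igf1r and Lepr, where the tile holding the start lay below 3% and the next inside above 60%. The next tile of Lepr held few reads (mean coverage 20.2 and 23.8) and ran from 0% to 100% in controls. That of Igf1r had reads in 3 exposed and 5 control pups. Further inside, 4 tiles that touched no promoter were below 10% in both groups, picked out after their values were seen. Those of Irs1 (chr1:82280001-82285000) and Insr (chr8:3220001-3225000) each held a CpG island, the Insr tile standing at 3.41% ± 4.79 after amphetamine and 4.38% ± 6.16 in controls. In Igf1r a tile 175 kb from the start (chr7:68125001-68130000), with no listed island and no other gene start, stood at 2.26% ± 4.36 and 4.17% ± 10.2, between tested neighbors above 60%. In Ppargc1a a tile 15.2 kb inside (chr5:51550001-51555000) stood at 0% in the exposed pups with reads and 2.38% ± 5.83 in controls. The last pair is shallow, with mean coverages of 26.6 to 48.4, so a few reads could move it.

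**Figure D3:**
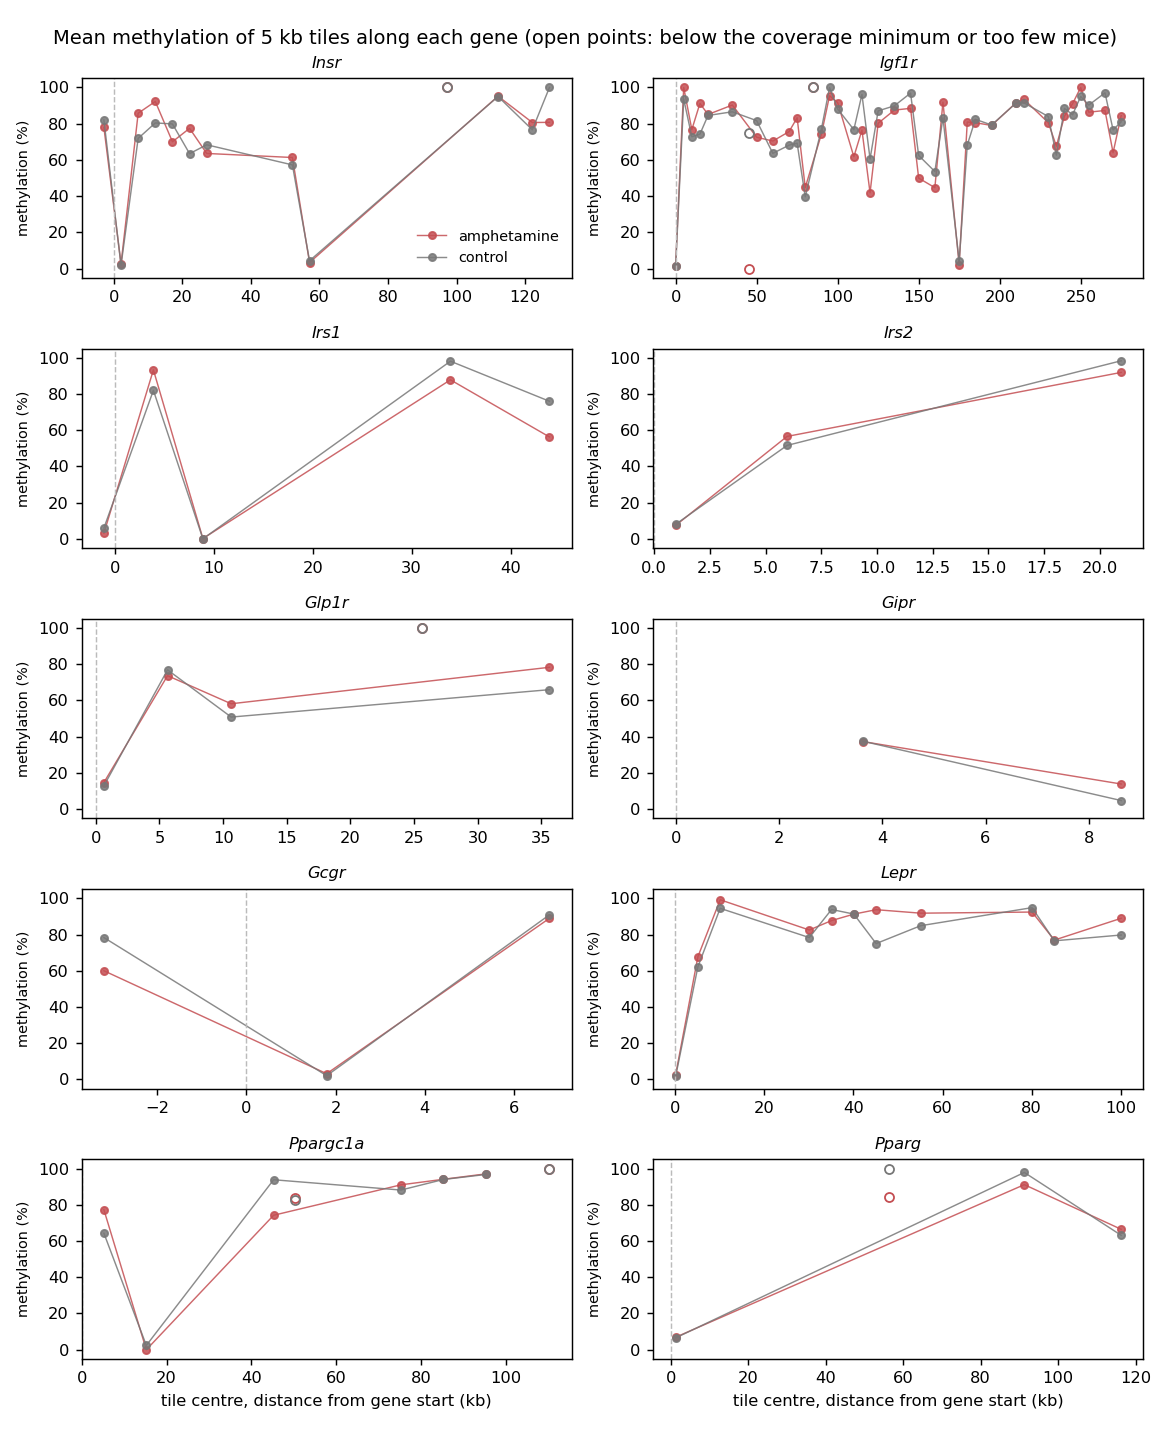
Mean methylation (%) of 5 kb tiles against the distance of the tile centre from the gene start (kb), one panel per gene, for amphetamine and control; open points are tiles too shallow or with too few pups to be tested. The tile nearest the start is below 15% in both groups for 8 of the 10 genes, not for Gipr and Ppargc1a, and separate dips inside Insr, Igf1r, Irs1 and Ppargc1a appear in both groups.

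Of the 94 tiles, 87 could be tested for treatment. The exposed pups were higher in 48 and lower in 39 (48.7% and 50.5% of all tiles), 0 were called and in 0 were the groups separate (0% and 0.361% of all tiles). An unadjusted p under 0.05 was found for 3, which is 1 tile each for Irs1, Igf1r and Insr, against 4.31% of all tiles. Besides the Irs1 tile above, an Igf1r tile 110 kb inside (chr7:68060001-68065000) stood at 61.8% ± 8.47 (51.8% to 73.6%) after amphetamine and 76.7% ± 10.8 (66.7% to 95.3%) in controls, a difference of -14.9 points (SE 5.96). An Insr tile 7.12 kb from the start (chr8:3270001-3275000) went the other way, at 85.8% ± 6.61 (80.4% to 97.2%) and 71.9% ± 11.9 (58.3% to 86.0%), a difference of 13.9 points (SE 6.00). The adjusted p of both was 0.967 in limma, and both pairs of ranges overlapped. Among the 12 islands, 7 were higher and 5 lower (48.9% and 49.1% of all islands), 0 were called and 0 had separate groups (0% and 0.444%), and 0 reached an unadjusted p under 0.05, against 3.95% of all islands. The smallest p was that of the inner Insr island (chr8:3221034-3221283), at 0.147% ± 0.329 in 5 exposed pups and 6.96% ± 8.49 in 5 controls with reads (difference -6.81 points, SE 3.80, adjusted p = 0.923, limma). The island of Gipr, 8.60 kb inside the gene (chr7:19157427-19157629), stood at 4.40% ± 6.45 and 0.324% ± 0.725 over 5 pups each (difference 4.07 points, SE 2.90, adjusted p = 0.923).

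For the other genes the tile with the smallest p is given as a description, since it was picked by its value. In Lepr it lay 55.1 kb inside, at 91.8% ± 2.84 after amphetamine and 84.9% ± 6.84 in controls. In Glp1r it lay at the far end, 35.6 kb from the start, at 78.3% ± 10.2 and 66.0% ± 16.4, and in Gipr 8.63 kb inside, at 13.9% ± 13.7 and 4.78% ± 2.82. The exposed pups were thus higher in these 3 chosen tiles, with overlapping ranges in each. Other tiles of the same genes were lower, 3 of the 11 tested in Lepr, 1 of 4 in Glp1r and 1 of 2 in Gipr. The exposed pups were lower in the chosen tiles of Irs2 (91.9% ± 9.26 and 98.3% ± 2.62), Pparg (91.1% ± 12.3 and 97.8% ± 5.32) and Ppargc1a (74.2% ± 32.7 and 93.8% ± 11). The Gcgr tile, also lower at 60.0% ± 54.8 and 78.3% ± 26.5, held few reads (mean coverage 24 and 37) and ran from 0% to 100% among exposed pups. The adjusted p in limma was 0.967 for each of these apart from Gcgr, where it was 0.970.

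The comparison of females with males asked whether the same genes differ by sex, and here 80 of 22735 promoters (0.352%) were called, 77 of them on the X chromosome. All 10 genes studied are autosomal, and on autosomes 3 promoters (0.0138%) were called. Of the 8 promoters 0 were called, 4 were higher and 4 lower in females (50.9% and 48% of all promoters), and 1 had an unadjusted p under 0.05 in limma, against 6.59% of all and 5.07% of autosomal promoters. That one, Igf1r, was also the only one of the 8 whose groups did not overlap, against 1.57% of all and 0.468% of autosomal promoters.

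Igf1r promoter methylation was 2.51% ± 0.448 in 6 females (1.90% to 3.14%) and 0.859% ± 0.670 in 5 males (0.10% to 1.53%). Every female lay above every male, with a gap between 1.53% and 1.90%. The difference was 1.65 points (SE 0.338), with an adjusted p of 0.230 over all promoters in the limma test. Without the X and Y chromosomes in the adjustment the adjusted p was 0.922. The difference was 1.46 to 1.82 points without any single pup and 1.63 points (SE 0.356) with treatment as a second term. Mean coverage was 1610 in females and 1714 in males. In size it was an ordinary difference, larger than 48.6% of those of all promoters, and it stood out through the small spread within each sex.

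The CpG island over the Igf1r start (chr7:67950704-67953382) gave 2.16% ± 0.400 in females (1.56% to 2.58%) and 1.06% ± 0.442 in males (0.285% to 1.41%), again without overlap. The difference was 1.11 points (SE 0.254, adjusted p = 0.669, limma). The tile there (chr7:67950001-67955000) holds the same values, so the promoter, island and tile are nested views of the same reads, of which the tile had no unadjusted p under 0.05 (adjusted p = 0.904). Over the 7 fits tried the adjusted p ranged from 0.169 to 0.922 for the promoter, from 0.363 to 0.922 for the island and from 0.886 to 0.955 for the tile. The Igf1r gene body did not follow, at 70.8% ± 3.13 in females and 69.0% ± 1.43 in males (adjusted p = 0.922).

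Irs1 was the one gene body with an unadjusted p under 0.05 for sex, against 6.44% of all and 5.41% of autosomal genes. Of the 10, 0 were called by limma (0.202% of all and 0.0212% of autosomal genes), 6 were higher and 4 lower in females (53.4% and 46.1% of all genes), and 0 had separate groups (1.04% of all and 0.453% of autosomal genes). Irs1 stood at 28.3% ± 5.69 in females (20.8% to 36.1%) and 20.8% ± 5.92 in males (15% to 30.8%), a difference of 7.56 points (SE 3.51, adjusted p = 0.767, limma). The ranges overlapped, and the highest and the lowest pup were both exposed to amphetamine, a female and a male. The Irs1 promoter stood at 8.45% ± 3.98 and 5.18% ± 1.75 (difference 3.27 points, SE 1.93, adjusted p = 0.854). Females were lower in the Gcgr body, at 22.9% ± 7.16 and 28.8% ± 3.10 (difference -5.95 points, SE 3.46, adjusted p = 0.845). The Lepr body differed least, at 70.4% in both sexes. Irs2 stood at 23.2% ± 5.73 and 20.0% ± 4.66, Insr at 37.5% ± 5.17 and 34.4% ± 6.78, and Ppargc1a at 81.7% ± 2.90 and 83.0% ± 8.10, each with a difference near or below its SE. The other promoters also overlapped, Insr at 5.44% ± 2.09 in females and 7.12% ± 2.21 in males and Pparg at 0.311% ± 0.530 and 1.71% ± 2.63.

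**Figure D4:**
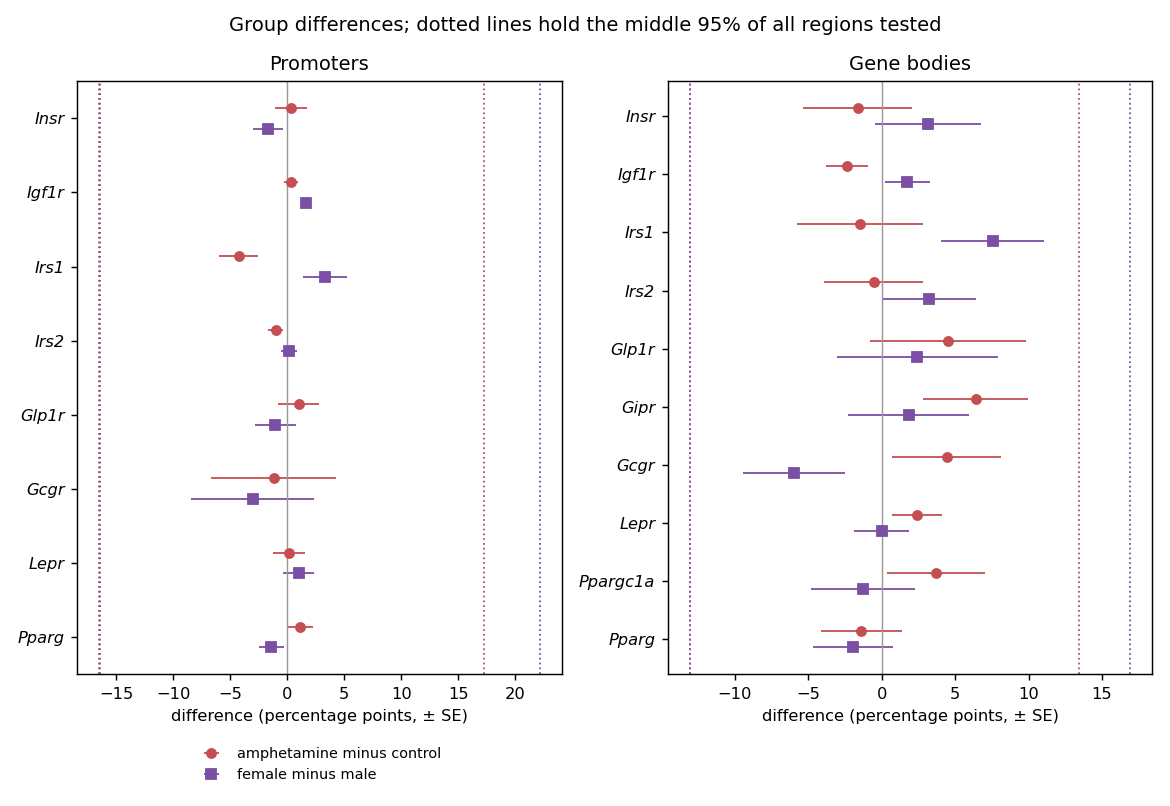
Differences in methylation (percentage points, with SE) for the promoters (left) and gene bodies (right), amphetamine minus control as circles and female minus male as squares; dotted lines in the matching colors enclose the middle 95% of the differences of all regions tested. Every promoter and gene body shown lies within those lines, the promoters between -4.26 and 3.27 points.

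Of the 85 tiles that could be tested for sex, 45 were higher and 40 lower in females (55.2% and 44.1% of all tiles), 0 were called (0.0334% of all and 0.00379% of autosomal tiles) and 1 had an unadjusted p under 0.05 in limma (5.46% of all and 5.22% of autosomal tiles). That tile lay in Insr, 22.1 kb from the start (chr8:3255001-3260000), at 91.9% ± 14.5 in females (64.3% to 100%) and 43.3% ± 27.9 in males (0% to 66.7%). The ranges overlapped by a narrow margin, and the difference of 48.6 points (SE 13.0) had an adjusted p of 0.621 in limma. Coverage was low, at a mean of 58.2 and 61.2, compared with 1426 and 1289 for the whole Insr body, where the difference was 3.16 points (SE 3.60). The only tile without overlap between the sexes (0.641% of all and 0.481% of autosomal tiles) was that over the Igf1r start. Among the 12 islands 5 were higher and 7 lower in females (49.9% and 48.1% of all islands), and 0 were called (0.622% of all and 0.00702% of autosomal islands). The Igf1r island was the 1 with an unadjusted p under 0.05 (6.3% of all and 4.44% of autosomal islands) and the 1 without overlap (1.9% and 0.493%). For the inner Insr island the values were 0.817% ± 1.67 in 6 females and 7.66% ± 9.63 in 4 males with reads (adjusted p = 0.851). The second Igf1r island, far inside the gene (chr7:68165009-68165253), was almost fully methylated, at 100% in 5 females and 94.9% ± 8.66 in 5 males. The tile with the smallest p, again picked by value, was lower in females for Igf1r 195 kb inside (71.2% ± 13.8 and 88.7% ± 13.7), for Gipr 3.63 kb inside (35% ± 3.56 and 40.4% ± 2.43) and for Lepr 85.1 kb inside (74.7% ± 2.55 and 79.1% ± 2.26). The Gcgr tile, 1.80 kb inside, was at 2.24% ± 2.89 and 3.0% ± 4.15. It was higher in females for Irs1 43.9 kb inside (79.7% ± 15.9 and 51.9% ± 38.9), Glp1r 5.63 kb inside (80.5% ± 12.6 and 69.3% ± 18.1), Irs2 5.96 kb inside (58.4% ± 14.2 and 48.4% ± 20.3), Ppargc1a 75.2 kb inside (92.9% ± 9.12 and 85.3% ± 12.8) and Pparg 91.3 kb inside (97.6% ± 3.13 and 91.3% ± 13.3). The ranges overlapped in each, and the adjusted p in limma lay between 0.904 and 0.970.

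The remaining islands differed little in either comparison. That of Gcgr (chr11:120530552-120530999) stood at 3.18% ± 3.75 after amphetamine and 2.09% ± 3.25 in controls, while females stood at 2.24% ± 2.89 and males at 3.0% ± 4.15. That of Glp1r (chr17:30901533-30902025) stood at 2.95% ± 2.64 and 3.02% ± 2.05 by treatment, and at 2.77% ± 2.17 and 3.25% ± 2.49 by sex. Both G protein-coupled receptors thus had group means below 5% in their islands. The Lepr island (chr4:101717346-101717617) was at 0% in all exposed pups and 1.12% ± 2.42 in controls, while females stood at 0.116% ± 0.284 and males at 1.21% ± 2.70. The Pparg island (chr6:115360968-115362226) stood at 1.62% ± 1.74 and 1.54% ± 1.25 by treatment, and at 1.53% ± 1.55 and 1.63% ± 1.42 by sex. By sex the Irs2 island was at 2.43% ± 0.854 in females and 2.08% ± 1.40 in males, and the inner Irs1 island at 0% and 0.317% ± 0.489. The Gipr island was at 4.40% ± 6.45 in 5 females and 0.324% ± 0.725 in 5 males, and by treatment the inner Igf1r island was at 98.9% ± 2.48 and 96.0% ± 8.94. The adjusted p of these islands was 0.857 or more in limma.

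The wider pathway was read from a list of 57 further genes for ligands, receptors, kinases and phosphatases of the insulin relay, the cyclic AMP and leptin relays and nuclear receptors. The promoter tables held 48 of them, and 0 were called for treatment by limma (0% of all promoters). Of the 48, 28 were higher, 19 lower and 3 at an unadjusted p under 0.05, beside 49.1%, 49.9% and 4.46% of all promoters. The median difference was 0.154 points, beside 0 over all promoters. Gnas, the imprinted gene of the stimulatory G protein subunit behind incretin receptors, had the smallest p, with 38.2% ± 16.7 after amphetamine (15.6% to 60.2%) and 71.7% ± 7.31 in controls (60.0% to 79.3%). The ranges touched at 60%, and the difference of -33.4 points (SE 7.5) had an adjusted p of 0.851 in limma. This window sits at the annotated start of a gene spanning chr2:174284320-174346744, and starts further inside Gnas were not examined. Whether the window serves the transcript of the G protein subunit was not tested. Inppl1, a lipid phosphatase that dampens the insulin signal, stood at 2.13% ± 1.13 and 0.510% ± 0.793, and Ppara, a nuclear receptor of fatty acid oxidation, at 2.54% ± 1.95 and 0.395% ± 0.614, both with an adjusted p of 0.937.

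By role, the amphetamine group was higher in 14 and lower in 8 of 23 promoters of the insulin relay, and lower in 7 of 11 nuclear receptor and coactivator promoters, where 49.1% of all promoters were higher and 49.9% lower. The 3 of leptin signaling and the 3 of other receptors were all slightly higher, by medians of 0.199 and 0.35 points. The promoters of ligands and their processing were mostly methylated, with a control median of 83.2% over 4, of which 1 was higher and 3 lower. In gene bodies 55 of the list could be tested, of which 25 were higher, 30 lower and 0 called, with 2 at an unadjusted p under 0.05, beside 48.1%, 51.4%, 0% and 4.27% of all genes. Both were nuclear receptors, Ppara at 35.6% ± 2.22 (33.0% to 38.3%) and 28.7% ± 3.40 (24.1% to 31.8%), and Ppard at 72.7% ± 1.33 and 77.5% ± 3.61, named after their values were seen. The Ppara groups did not overlap (0.314% of all gene bodies), with a difference of 6.95 points (SE 1.78) and an adjusted p of 0.986 in limma.

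For sex, 0 of the 48 promoters were called by limma (0.352% of all and 0.0138% of autosomal promoters). In females 23 were higher and 24 lower, and 1 had an unadjusted p under 0.05, beside 50.9%, 48% and 6.59% of all promoters (5.07% of autosomal ones for the last). It was Pik3ca, the catalytic kinase subunit downstream of Irs1 and Irs2, at 1.95% ± 1.3 in females (0.510% to 3.96%) and 5.35% ± 2.71 in males (2.88% to 9.14%), with a difference of -3.39 points (SE 1.24) and an adjusted p of 0.552 in limma. Esrra, an orphan receptor that works with Ppargc1a, stood at 2.25% ± 2.06 and 0.415% ± 0.486 (adjusted p = 0.814). Dpp4, the protease that inactivates incretins, stood at 52.5% ± 47.4 in 6 females and 96.4% ± 7.29 in 4 males with reads (adjusted p = 0.820), at mean coverages of 20.7 and 27.0. Of 54 gene bodies tested 0 were called (0.202% of all and 0.0212% of autosomal genes). In females 25 were higher and 29 lower, and 4 had an unadjusted p under 0.05, beside 53.4%, 46.1% and 6.44% of all genes (5.41% of autosomal ones for the last). Of these 4, 2 were among the 5 other receptors, 1 higher and 1 lower (lowest adjusted p = 0.469, limma). The other 2 were in the insulin relay, both lower (lowest adjusted p = 0.697, limma).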

How the data were processed

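RRBS libraries from 11 pancreata were digested with MspI and TaqI, sequenced as single-end reads, and the authors aligned them to mm10 (Bismark, run through NextFlow methylseq), condensed CpG sites into regions in RnBeads and compared groups by limma; the submitters' processing notes also name methylKit. Versions of Bismark, limma and methylKit are not given in the sources used here. The deposited tables cover promoters, genes, CpG islands and tiles for both comparisons. Methylation in them is a fraction, given by the authors as a mean per group over mice with reads and printed here as a percent. Beside it the tables give the SD, the lowest and highest mouse and how many mice had reads. Coverage, as deposited, is a signal with no depth normalization, given as a group mean. Its median over all promoters was 230.2 in exposed pups and 184.2 in controls, and over all tiles 66.2 and 53.5. Females were also deeper than males, at 216.8 and 190.4 for promoters and 62.7 and 55 for tiles. Genes and islands went the same way in both comparisons. The authors' own comparison columns (differences, log2 quotients, p-values, adjusted p-values and combined ranks) were not used.

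Each test was rebuilt in R 4.3.3 with limma 3.58.1 from group means, SDs and numbers of mice: a two-sided moderated test with a prior variance following mean methylation and Benjamini-Hochberg adjustment over the whole table, for regions with a mean coverage of at least 10 and at least 2 mice with reads in each group. It was tested on simulated data. Islands and tiles were assigned by an overlap of at least 1 bp with the gene or promoter. Named were all 10 genes, the island and tile with the smallest p per gene (as a description) and those without overlap between groups, and the 3 pathway promoters with the smallest p per comparison. The genes and lists were chosen with earlier results of these data known. Values per mouse and depth per mouse were not analysed here, and precision is given by SD, SE and mean coverage. Each SE comes from the spread within groups before moderation, so p-values cannot be read from a difference and its SE. Of 143 promoters on the Y chromosome, 137 had a higher mean coverage in males, but 0 were without reads in every female. The cause of the reads in females was not tested, so this check does not settle the sex labels. Chromosome lengths of GRCm38 held every tile on all 21 chromosomes.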

Additional observations from a re-analysis of the deposited data

How the results depend on the processing

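The calls of the 10 genes did not depend on the settings tried: with adjusted p under 0.05 or 0.1 alone, no coverage minimum, a minimum of 30, one prior variance, without X and Y, without regions with an SD of 0, or with the other factor as a second term, 0 of their regions were called in either comparison. For treatment, 1 of 8 promoters and 3 of 87 tiles had an unadjusted p under 0.05 in limma (4.46% and 4.31% of all). Of 10 gene bodies and 12 islands 0 did (4.27% and 3.95% of all). For sex, 1 region of each class did, of 8 promoters, 10 gene bodies, 12 islands and 85 tiles (6.59%, 6.44%, 6.3% and 5.46% of all). The Irs1 promoter and its start tile share reads, as do the Igf1r promoter and its island. Of 36 promoter and gene-body differences, 36 kept their sign with the second term and 22 kept it without any 1 mouse. Over all regions, the treatment counts of 0 became 1 promoter at adjusted p under 0.05, 2 at 0.1 and 1018 unadjusted; 1057 genes unadjusted and 3 with no coverage minimum; 578 islands unadjusted; and, for tiles, 1 at 0.1, 9730 unadjusted, 23 with no minimum, 1 at a minimum of 30 and 4 with one prior variance. For sex, counts at adjusted p under 0.05 alone, under 0.1 alone and unadjusted were 130, 208 and 1499 promoters (80 as reported), 101, 129 and 1592 genes (50), 155, 188 and 922 islands (91) and 121, 166 and 12243 tiles (75, or 137 with no minimum). At the thresholds of the study, 0 of each were called when the X and Y chromosomes were left out of the test. The 3 autosomal promoters called above were thus called only with X and Y included. Unadjusted, 1105 promoters, 1279 genes, 632 islands and 11023 tiles on autosomes had p under 0.05 in limma. Apart from the looser or stricter threshold itself, the cause was not tested. The counts could not be recomputed without single mice, since values per mouse were not analysed here, and no paired analysis was possible because the columns carry no replicate numbers.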

Other observations

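No expression was measured, so the tissue label could not be checked against transcripts. As a description, the 5 promoters of endocrine genes in the tables (Pdx1, Nkx6-1, Neurod1, Isl1 and Chga) lay between 1.90% and 5.48% in controls and between 1.18% and 13.1% after amphetamine. The highest endocrine value was that of Neurod1, a transcription factor of islet cells, at 13.1% ± 5.58 (6.11% to 19.5%) after amphetamine and 5.07% ± 3.88 (0% to 11.8%) in controls. The difference of 8.04 points (SE 2.85) had an adjusted p of 0.937 in limma, the ranges overlapped, and it was chosen after its value was seen.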
